A study of Homo sapiens with 4 samples.

Results

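The 10 genes of the BCL2 family listed below are described here in A549 cells, an established human lung carcinoma line, with and without induction of A-FOS. A-FOS is a dominant-negative FOS that pairs with JUN proteins and keeps AP-1 off DNA. These genes and the other gene lists below were chosen by name, with earlier results of these data known. Each of the 10 matched 1 of the 58051 Ensembl genes in the count files. All 4 libraries, of polyA RNA, came from A549 cells carrying A-FOS under doxycycline control, inserted at random with piggyBac, although the titles say knock-in. The minus Dox group (n = 2) had no treatment and the plus Dox group (n = 2) had doxycycline at 1 µg/mL. The labels give neither the time of treatment, nor whether the cells were 1 clone or a pool, nor whether replicates are separate cultures. The p-values below therefore reflect only how much the 4 libraries vary, and that variation may be technical. Doxycycline and A-FOS cannot be told apart, since no library had doxycycline without A-FOS.

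The BCL2 family decides whether the outer mitochondrial membrane stays intact. Anti-apoptotic members (BCL2, BCL2L1, MCL1) hold the pore-forming effectors BAX and BAK1 in check, and BH3-only members (BID, BCL2L11, BBC3, PMAIP1, BMF) release or activate the effectors after damage, stress or loss of growth signals. Once the membrane is open, cytochrome c leaves the mitochondria and caspases are activated. In epithelial tumour cells the balance is often held by BCL2L1 and MCL1, and much of the control lies in protein stability and binding, which RNA counts do not show.

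With doxycycline, the BH3-only gene BCL2L11 fell 2.22-fold, BBC3 fell 1.58-fold, and PMAIP1 rose 1.71-fold. The anti-apoptotic gene BCL2L1 fell 1.50-fold and the effector BAX fell 1.39-fold. BAK1 had 22.2 ± 0.591 CPM in minus Dox and 23.8 ± 1.89 CPM in plus Dox (SD, n = 2). CPM is counts relative to a TMM-scaled library total. Of the 10 members, 2 rose (BCL2 and PMAIP1), 6 fell (BCL2L1, MCL1, BAX, BID, BCL2L11 and BBC3) and 2 (BAK1 and BMF) did not pass an adjusted p of 0.05 in edgeR's quasi-likelihood fit over all genes. Across all 18046 tested genes 28.4% rose and 28.4% fell, 56.9% in all, so calls were common everywhere. The median log2 fold change in this fit was −0.36 over the members and 0.00 over all tested genes. Only BCL2L11 was both called and changed at least 2-fold, as were 12.7% of tested genes. In 9 of 10 members the CPM of the groups did not overlap, as in 77.0% of tested genes. The exception was BAK1. With trends of GC content, length and abundance removed, BCL2L1, BAX, BID, BCL2 and PMAIP1 changed less and MCL1 turned sign. BCL2L11, BBC3 and BMF lay lower there and BAK1 higher, so the median of the members depends on the processing. In bulk RNA, fewer cells of a type and less RNA per cell cannot be told apart.

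The libraries held between 31104964 and 40526912 counts. FOS rose from 1.44 to 49.8 CPM, although A-FOS transcripts may be counted there. All 5 epithelial markers were detected, and 4 were called lower with doxycycline. KRT19 fell 5.79-fold (122 to 21.1 CPM), and EPCAM went from 3.49 to 2.12 CPM (past in edgeR, adjusted p = 0.0623 in DESeq2). KRT8 went from 5280 to 3656 CPM and KRT18 from 2807 to 2151 CPM, but with trends of GC content, length and abundance removed both were called higher (0.36 and 0.39 on the log2 scale). CDH1 had 33.8 to 38.5 CPM over the libraries and did not pass. The leukocyte marker CD3E was at 0 in all 4 libraries, and PTPRC had 0 to 8 counts. Endothelial PECAM1 had 4 to 20 and CDH5 1 to 41 counts, both called lower in edgeR but not in DESeq2 (adjusted p = 0.157 and 0.0637). Of the fibroblast markers, COL1A1 had 1199 to 1638 counts and was called lower (40.0 to 35.1 CPM, but 0.023 as a log2 fold change with library size only), while COL3A1 and PDGFRB had 26 to 55 counts and did not pass. The part of these marker differences in the results below was not tested. The alveolar genes SFTPC, SFTPB and NKX2-1 had at most 6 counts in a library. Without TMM, using library size only, the median of all tested genes moves from 0.00 to 0.22 on the log2 scale, and small changes below are read against that shift.

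**Figure D1:**
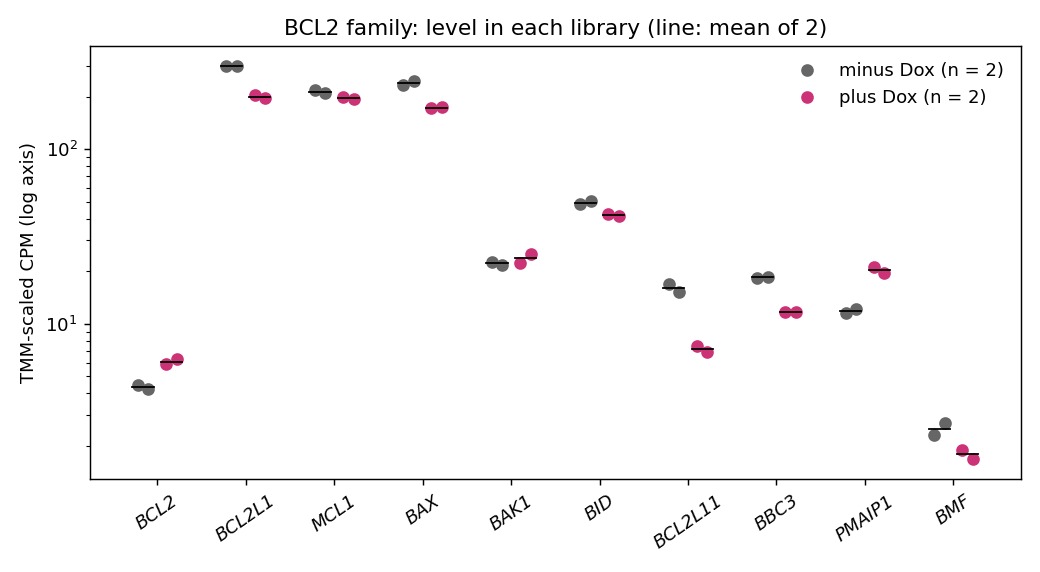
TMM-scaled CPM (log axis) of the 10 genes in each library, grey for minus Dox and red for plus Dox, with the mean of each pair as a line. BCL2L11 drops from 15.2 and 16.9 to 6.92 and 7.47, PMAIP1 goes from 11.5 and 12.2 to 19.5 and 21.1, and the groups overlap only for BAK1.

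The promoters of 4 members are shown because these genes moved in different directions and because 3 of the windows hold one of the words searched for. RefSeq windows (GRCh38.p14) were found for 9 of the 10 members, 15 windows in all, and the 250 bases before each start were searched on both strands for the AP-1 word TGANTCA, the cAMP response element TGACGTCA, the forkhead word TGTTTAC and the MYC-type E-box CACGTG. These words were chosen after the windows had been looked at, and no 2 of the marked words overlap. Capitals mark the forkhead word in BCL2L11 (reverse strand, so it reads GTAAACA), the AP-1 word in BBC3 and the E-boxes in BAX. PMAIP1 held none of the 4 words. The windows are BCL2L11 at chr2:111120664-111120913 (plus strand, all 250 bases in an intron of the GENCODE 29 gene), BBC3 at chr19:47232668-47232917 (minus strand, 99 bases in exons of the gene and 151 outside it), BAX at chr19:48954625-48954874 (plus strand, 60 bases in exons and 190 outside) and PMAIP1 at chr18:59899746-59899995 (plus strand, 48 bases in an exon and 202 outside).
BCL2L11: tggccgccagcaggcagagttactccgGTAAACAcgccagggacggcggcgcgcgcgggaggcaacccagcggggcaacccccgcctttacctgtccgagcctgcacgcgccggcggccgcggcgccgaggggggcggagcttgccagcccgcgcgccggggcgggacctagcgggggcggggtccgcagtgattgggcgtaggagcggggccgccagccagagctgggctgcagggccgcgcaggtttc
BBC3: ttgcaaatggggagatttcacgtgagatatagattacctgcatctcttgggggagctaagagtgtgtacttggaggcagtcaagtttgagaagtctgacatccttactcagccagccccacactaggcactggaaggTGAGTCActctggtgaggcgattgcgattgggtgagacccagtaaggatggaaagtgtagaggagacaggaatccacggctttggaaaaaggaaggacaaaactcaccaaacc
BAX: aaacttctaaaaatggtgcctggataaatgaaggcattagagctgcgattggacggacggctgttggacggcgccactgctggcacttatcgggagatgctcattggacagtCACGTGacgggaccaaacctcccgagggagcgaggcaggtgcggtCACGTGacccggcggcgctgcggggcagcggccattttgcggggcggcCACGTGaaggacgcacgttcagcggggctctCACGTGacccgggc
PMAIP1: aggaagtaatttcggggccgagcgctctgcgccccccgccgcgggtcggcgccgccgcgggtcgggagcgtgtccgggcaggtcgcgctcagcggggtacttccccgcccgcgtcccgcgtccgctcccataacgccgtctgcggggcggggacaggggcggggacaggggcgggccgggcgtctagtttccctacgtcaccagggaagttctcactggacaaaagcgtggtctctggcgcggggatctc
The forkhead word lies 223 bases before the RefSeq start of BCL2L11, and 2.98% of 35116 promoter windows of this length hold one. The AP-1 word lies 113 bases before the start of BBC3, and 6.57% of windows hold one. BBC3 was the only one of the 9 members with an AP-1 word in these windows. BAX has 4 E-boxes, 138, 93, 45 and 14 bases before its start. An E-box occurs in 6.34% of windows, and 4 or more in 5 windows (0.0142%). The cut of 4 is the count in BAX, whose window is among the 5, so this share is no independent measure. BBC3 and 2 of the windows of BID also have 1 E-box each, and the cAMP response element is in none of the 15 windows (1.65% of all windows). A match describes letters in the window and is not evidence of binding.

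Of the 3 anti-apoptotic genes 2 fell and 1 rose. BCL2L1 encodes BCL-XL, which binds BAX, BAK1 and BH3-only proteins (ENSG00000171552, chromosome 20, 31664452 to 31723989 in hg38). It had 298 and 301 CPM in the minus Dox libraries and 203 and 196 CPM in the plus Dox libraries. Both treated libraries lay well below both controls, and the log2 fold change was −0.59 (SE 0.0389, adjusted p = 2.36e-15). On the opposite strand, ABALON overlaps 43.0% of the exon bases of BCL2L1, and the strand setting of the counting is not given, which leaves the split of reads between them uncertain. ABALON had 9.74 to 10.5 CPM without and 5.43 to 6.28 CPM with doxycycline, a log2 fold change of −0.78. It was far below BCL2L1 in count, which does not show how reads over the shared bases were assigned. The fall of BCL2L1 was smaller with library size only (−0.37) and with trends over GC content, length and abundance removed (−0.28), and it passed in both.

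MCL1 encodes a short-lived guard of BAK1 (ENSG00000143384, chromosome 1, 150574551 to 150579738). Its levels were 218 and 208 CPM without and 200 and 194 CPM with doxycycline. The groups did not overlap, but the gap was narrow: the log2 fold change was −0.11 (SE 0.0407, adjusted p = 0.0158). That direction depends on the scaling, since MCL1 passed as higher with library size only (0.10, adjusted p = 0.0295) and lay at 0.07 with the trends removed (adjusted p = 0.134). It did not pass without plus Dox replicate 1 (adjusted p = 0.0751) or without plus Dox replicate 2 (0.235).

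BCL2, the founding member of the family (ENSG00000171791, chromosome 18, 63123346 to 63320128), was low. It had 150 and 159 counts (4.44 and 4.24 CPM) without and 206 and 210 counts (5.85 and 6.26 CPM) with doxycycline. Both treated libraries were higher, with a log2 fold change of 0.48 (SE 0.15, adjusted p = 0.00623). The call was lost in DESeq2 (adjusted p = 0.0982) and without plus Dox replicate 2 (edgeR adjusted p = 0.0516).

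The effectors moved unequally. BAX, which is cytosolic until activated (ENSG00000087088, chromosome 19, 48954815 to 48961798), had 234 and 247 CPM without and 171 and 174 CPM with doxycycline. Its treated libraries were clearly lower, at a log2 fold change of −0.48 (SE 0.0408, adjusted p = 1.70e-12), or −0.26 with library size only and −0.17 with the trends removed, both past the threshold. BAK1, which sits in the mitochondrial membrane (ENSG00000030110, chromosome 6, 33572547 to 33580293), had 22.7 and 21.8 CPM without and 22.4 and 25.1 CPM with doxycycline. These values overlap, and the log2 fold change of 0.09 had a 95% interval from −0.07 to 0.26 (adjusted p = 0.330). BAK1 passed as higher with library size only (0.31, adjusted p = 0.00104) and with the trends removed (0.25, adjusted p = 0.00824).

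Of the 5 BH3-only genes 3 fell, 1 rose and 1 did not pass. BCL2L11 encodes BIM, which binds every anti-apoptotic member and is known for its control by growth factor signals and FOXO factors (ENSG00000153094, chromosome 2, 111119378 to 111168447). Its counts were 571 and 569 without and 263 and 232 with doxycycline, or 16.9 and 15.2 against 7.47 and 6.92 CPM. This was the largest change of the 10 in the main analysis, with a log2 fold change of −1.15 (SE 0.109, 95% interval −1.37 to −0.93, adjusted p = 2.15e-11), and it ranged from −1.24 to −0.94 over the other 11 settings tried. The long non-coding RNA MIR4435-2HG overlaps 10.9% of its exon bases from the opposite strand and moved the other way, from 19.4 and 20.8 CPM to 30.5 and 27.4 CPM.

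BBC3 encodes PUMA, a damage-induced protein that also binds all anti-apoptotic members (ENSG00000105327, chromosome 19, 47220822 to 47232766). Its CPM was 18.4 and 18.5 without and 11.7 and 11.6 with doxycycline. The libraries of each group were almost equal, and the log2 fold change was −0.66 (SE 0.0929, adjusted p = 1.42e-07). BID, which carries the death receptor signal to mitochondria once CASP8 cuts it (ENSG00000015475, chromosome 22, 17734138 to 17774770), had 48.5 and 50.1 CPM without and 42.3 and 41.1 CPM with doxycycline. Its log2 fold change was −0.24 (SE 0.0609, adjusted p = 9.06e-04), but the call ended with library size only (−0.026, adjusted p = 0.745) and with the trends removed (−0.12, adjusted p = 0.0941).

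PMAIP1 encodes NOXA, a selective partner of MCL1 and BCL2A1 (ENSG00000141682, chromosome 18, 59899948 to 59904306). It went from 389 and 458 counts to 742 and 655 counts, or from 11.5 and 12.2 to 21.1 and 19.5 CPM. It rose against the direction of most members, with a log2 fold change of 0.78 (SE 0.0922, adjusted p = 4.68e-09), and by 0.41 with the trends removed (adjusted p = 2.63e-04). BMF, a BH3-only protein tied to the cytoskeleton through the dynein light chain DYNLL2 (ENSG00000104081, chromosome 15, 40087890 to 40108892), had the fewest counts of the 10. It had 78 and 101 counts without and 67 and 56 with doxycycline, a log2 fold change of −0.49 (SE 0.233) that did not pass (adjusted p = 0.0747). It passed as lower with the trends removed (−0.60, adjusted p = 0.0288).

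**Figure D2:**
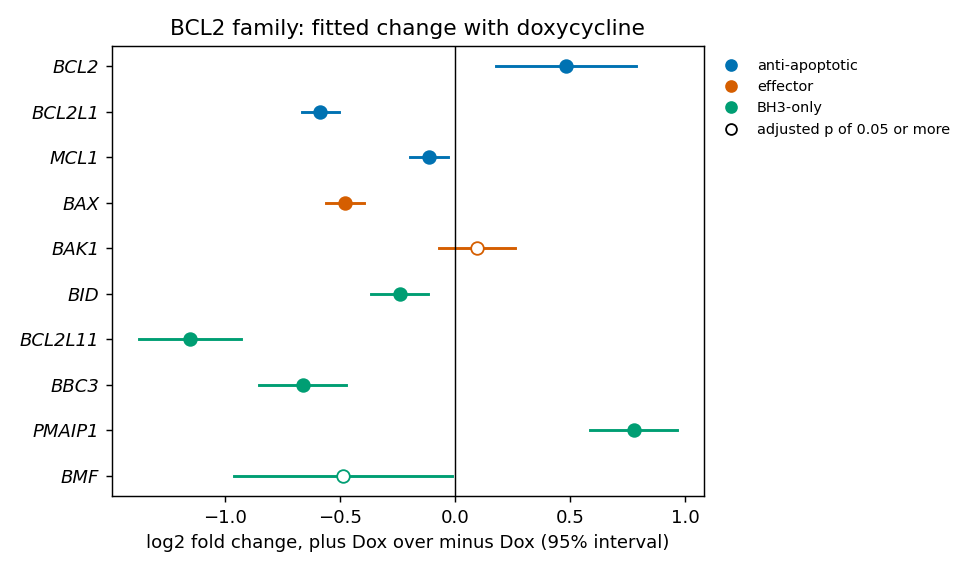
Fitted log2 fold change of each gene, plus Dox over minus Dox, with its 95% interval, coloured by role and open where the adjusted p was 0.05 or more. BCL2L11 lies lowest at −1.15 and PMAIP1 highest at 0.78, and the intervals are widest for the least counted genes BMF and BCL2.

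Levels of different genes were compared as CPM per kb of exon bases in GENCODE 29. Without doxycycline the order was BAX (93.0 ± 3.51), BCL2L1 (90.3 ± 0.535), MCL1 (48.8 ± 1.59), BID (11.1 ± 0.252), BAK1 (10.1 ± 0.267), BBC3 (5.80 ± 0.0198), PMAIP1 (5.31 ± 0.225), BCL2L11 (2.41 ± 0.182), BMF (0.459 ± 0.0503) and BCL2 (0.369 ± 0.0117; SD, n = 2). In that order, by exon bases, only the libraries of BAX and BCL2L1 overlapped. With doxycycline the top remained BAX (66.7 ± 0.738), BCL2L1 (60.2 ± 1.58) and MCL1 (45.1 ± 0.943). PMAIP1 (9.09 ± 0.487) then stood above BBC3 (3.67 ± 0.00927) and overlapped BID (9.39 ± 0.189), and BCL2 (0.515 ± 0.0248) stood above BMF (0.328 ± 0.0302; SD, n = 2). These orders depend on the length used. By the longest transcript, BAX held 44.0% and 45.4% of the summed level of the 10 genes in minus Dox, apart from BCL2L1 (29.1% and 28.8%). BAK1 (2.61% and 2.46%) and BBC3 (2.55% and 2.51%) overlapped there. In plus Dox, PMAIP1 (3.59% and 3.35%) then overlapped BAK1 (3.36% and 3.79%) and not BID (5.62% and 5.51%).

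The make-up of the family was described by role. Of the summed CPM per kb of the 10 genes, the anti-apoptotic genes held 52.8% and 51.5% without and 51.7% and 50.6% with doxycycline, and the effectors 37.9% and 39.1% without and 36.7% and 38.2% with it. In both roles the groups overlapped. The BH3-only genes held 9.34% and 9.40% without and 11.6% and 11.2% with doxycycline, with no overlap. These are shares of a total in which BCL2L1 and BAX fell, so they do not show a rise in BH3-only RNA. The share of BID went from 4.11% and 4.19% to 4.58% and 4.50%. Its level meanwhile fell from 11.1 to 9.39 CPM per kb. Within the BH3-only genes PMAIP1 went from 1.94% and 2.03% to 4.54% and 4.25%, and BCL2L11 from 0.954% and 0.846% to 0.540% and 0.506%. Per length, PMAIP1 was 2.03 and 2.40 times BCL2L11 in the minus Dox libraries and 8.40 and 8.41 times in the plus Dox libraries. BCL2L1 was 1.80 and 1.90 times MCL1 without and 1.34 and 1.33 times with doxycycline. These shares and ratios depend on the length used and, through BCL2L1, on how reads over the ABALON overlap were counted. They were not tested.

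**Figure D3:**
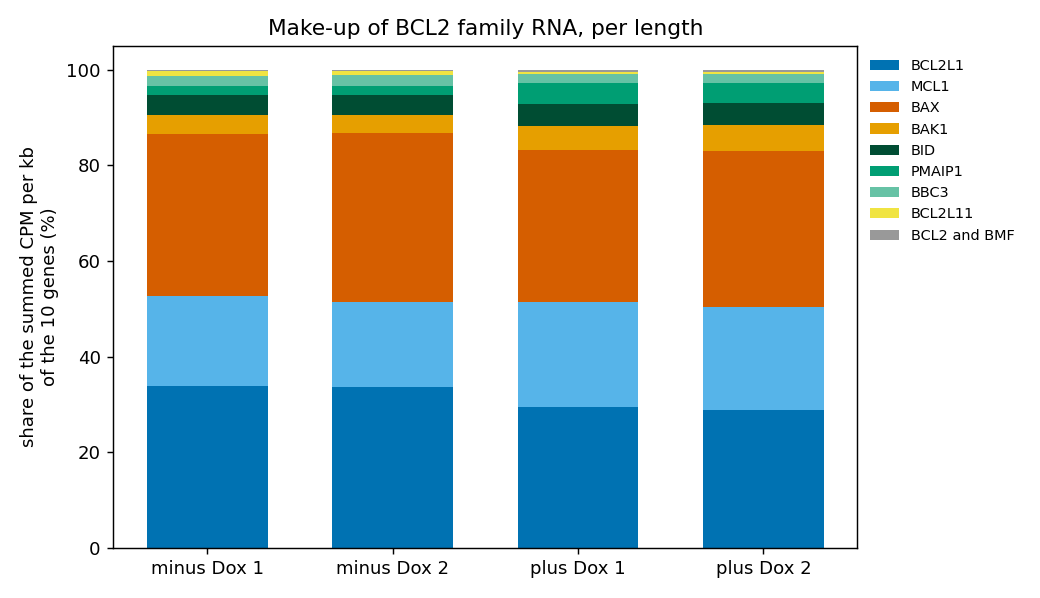
Share of each gene in the summed CPM per kb of exon of the 10 genes (%), 1 bar per library. BCL2L1, MCL1 and BAX fill most of every bar, BCL2L1 narrows from 33.8% and 33.7% to 29.5% and 28.7%, and PMAIP1 widens with doxycycline.

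Among 11310 genes with a symbol and at least 5 CPM on average, the 3 whose centred log2 CPM over the 4 libraries lay nearest to BCL2L1, the member with the lowest adjusted p, were ZNF71, RPL27A and RPS7. Their root mean square distances were 0.0075, 0.0081 and 0.010. With 4 libraries in 2 groups this likeness mostly restates a similar fold change, 1.50-fold, 1.49-fold and 1.50-fold lower.

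Other family members were taken from a list of 13 genes, of which 10 had enough counts to test. Of these 4 rose and 2 fell, 4 missed the threshold, and the median log2 fold change was −0.08. For comparison, 28.4% of all tested genes rose and 28.4% fell. BCL2A1, an anti-apoptotic relative known as an NF-kB target, had 130 and 127 counts without and 10 and 7 counts with doxycycline. It fell from 3.62 ± 0.323 to 0.246 ± 0.0532 CPM (SD, n = 2), which is −3.85 as a log2 fold change (SE 0.323, adjusted p = 1.15e-12). BCL2L2, which encodes the anti-apoptotic BCL-W, rose by 0.27 on the log2 scale, from 29.3 to 35.2 CPM, and the read-through gene BCL2L2-PABPN1 covers 19.4% of its exon bases. BOK, a relative of the effectors, fell from 21.9 to 16.9 CPM, and with library size only it did not pass (−0.16, adjusted p = 0.112).

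The mitophagy receptors BNIP3L, BNIP3 and BCL2L13 rose, from 54.3 to 89.2, from 44.1 to 60.7 and from 79.0 to 96.6 CPM. The BH3-only gene BAD had 41.8 and 37.8 CPM (log2 fold change −0.15, adjusted p = 0.0515), and 23.7% of its exon bases lie opposite GPR137. BCL2L15, BIK and BCL2L12 had log2 fold changes of −0.42, −0.11 and −0.05 and missed the threshold. The sign of BAD, BIK and BCL2L12 turned with library size only, where BCL2L12 passed as higher (0.17, adjusted p = 0.0299), and BCL2L15 passed as lower with the trends removed (−0.68, adjusted p = 0.00904). For the counting, 33.1% of the exon bases of BCL2L12 lie opposite IRF3. BCL2L10, BCL2L14 and HRK had at most 8 counts in any library and were not tested.

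The caspase and apoptosome list also holds genes that act at death receptors. Of its 9 genes 5 rose, 3 fell and 1 did not pass. Their median log2 fold change was 0.27. Beside this list and the inhibitors below, 28.4% of all tested genes rose and 28.4% fell. CYCS (cytochrome c), which the family's pore releases, rose from 119 ± 7.49 to 222 ± 6.17 CPM (SD, n = 2). APAF1, the scaffold of the apoptosome, rose from 47.3 to 64.4 CPM and CASP10, a caspase of the death receptors, from 11.2 to 16.1 CPM. CFLAR, the inhibitor of CASP8 at death receptors, fell from 76.0 to 47.3 CPM. The other falls were CASP8 (46.3 to 37.3 CPM, not past with library size only, adjusted p = 0.192), which was named after its value was seen, and its adaptor FADD (32.3 to 23.6 CPM), and 54.9% of the exon bases of FADD lie opposite another gene. Of the 7 caspase inhibitors and their antagonists 3 rose, 3 fell and 1 did not pass (median −0.14). XIAP, which blocks caspases directly, rose from 62.3 to 88.5 CPM, and BIRC2 rose from 46.2 to 60.2 CPM. BIRC3, an inhibitor under NF-kB control, fell from 27.2 to 14.4 CPM, the mitotic BIRC5 from 194 to 174 CPM and HTRA2, a mitochondrial antagonist of the inhibitors, from 23.2 to 18.5 CPM. Of these 3 only BIRC3 passed with library size only. BIRC5 turned sign there (0.057) and passed as higher with the trends removed (0.11, adjusted p = 0.0318), where BIRC2 did not pass (adjusted p = 0.751). The exons of HTRA2 lie opposite other genes over 36.9% of their bases.

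**Figure D4:**
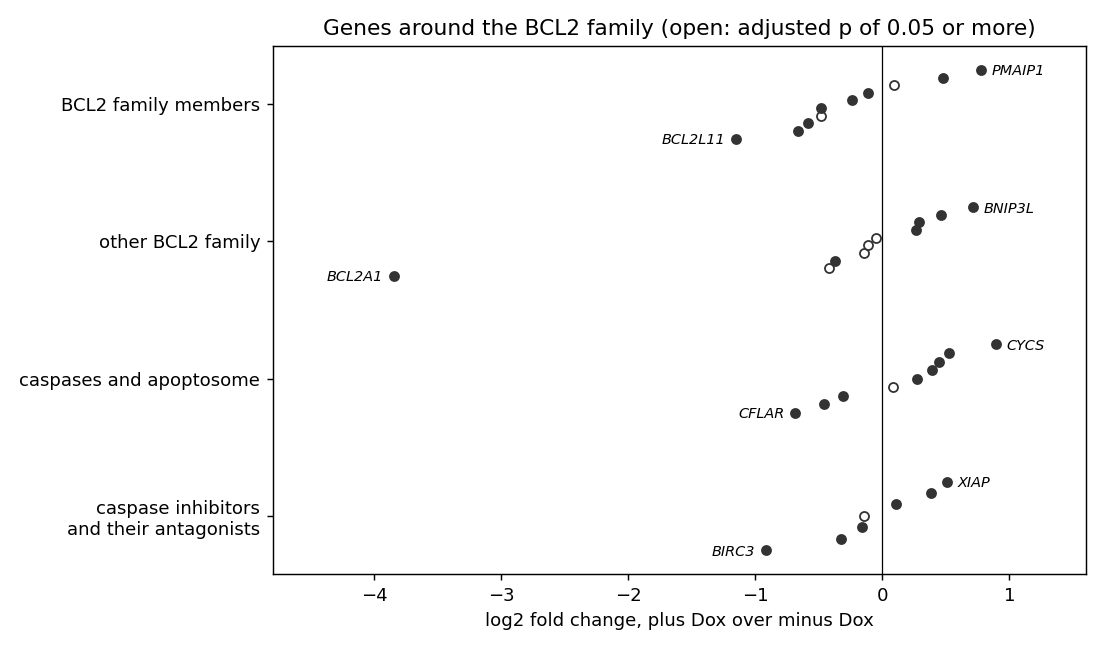
Fitted log2 fold change (plus Dox over minus Dox) of each tested gene in the BCL2 family and 3 related lists, filled where the adjusted p was under 0.05, with the lowest and highest gene of each list named. BCL2A1 stands lowest at −3.85. In the caspase and apoptosome list 5 of 9 genes rose and 3 fell, while 28.4% of all tested genes rose and 28.4% fell.

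**Figure D5:**
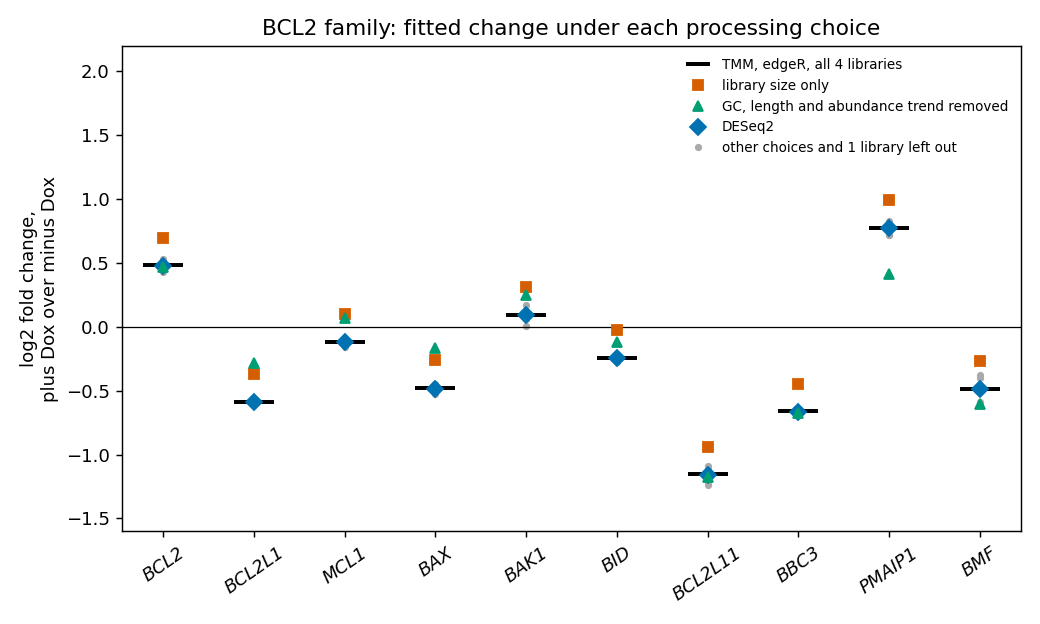
Fitted log2 fold change of each gene under every processing choice tried. BCL2L11, BBC3, BCL2L1 and BAX stay below 0 and PMAIP1 and BCL2 above 0 in all of them, whereas MCL1 lies at −0.11 with TMM and 0.10 with library size only.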

How the data were processed

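The deposited files hold raw read counts per Ensembl gene, 1 file per library, per the file headers and the values. Per the submitters' processing notes, which give no role or order, the build was hg38 and the tools included STAR 2.7.10b with cutadapt 4.0, featureCounts 2.0.3, DRAGEN and DESeq2 2.11.40.7. For annotation release and strand setting, the value is not given in the sources used here. Gene symbols, positions, exon lengths and overlaps came from GENCODE 29 and a table of gene names.

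In R 4.3.3, edgeR 4.0.16 kept 18046 genes (filterByExpr defaults), scaled them by TMM (factors 0.926 to 1.08) and ran its quasi-likelihood test of group, with Benjamini-Hochberg adjustment over all tested genes and a threshold of 0.05. Every adjusted p in the text is from this fit unless another is named. SE is the absolute log2 fold change divided by the square root of F. Alternatives included DESeq2 1.42.0 and, added after seeing the data, an offset removing smooth trends (mgcv 1.9.3) of fold change over GC content, length and abundance. These trends were fitted to the fold changes of the main fit and explained 9.91% of their deviance. The test then took the offset as known. Replicates of a group differed beyond counting noise (chi-square per degree of freedom 4.10 and 2.23). The edgeR code was run on simulated counts, which checks the code and not these results.

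The members and gene lists were chosen with earlier results of these data known. Named were all members, all tested genes of the other family list, FOS, and up to 5 genes of each further list by lowest adjusted p, of which not all are printed. A few genes and results of these lists are not reported here. Where a library has 0 counts, up to 3 counts (0.0740 to 0.0964 CPM before scaling) are allowed for, by counting error alone.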

Additional observations from a re-analysis of the deposited data

How the results depend on the processing

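For BCL2L1, BAX, BCL2L11, BBC3 and PMAIP1, direction and call held in all 11 other settings. With library size only, all tested genes split into 7865 higher and 2925 lower, 4 members were called higher, MCL1 turned to 0.10, BAK1 passed at 0.31 and BID missed at −0.026 on the log2 scale. With GC, length and abundance trends removed, MCL1 turned to 0.073, BAK1 passed at 0.25, BMF passed at −0.60 and BID missed at −0.12. In DESeq2 1 member was called higher and BCL2 missed at 0.48 (adjusted p = 0.0982). Leaving out 1 library at a time gave 1 to 2 members higher, 0.43 to 0.53 for BCL2 and −0.16 to −0.093 for MCL1, which missed without either plus Dox library. With the longest transcript in place of all exon bases, shares in minus and plus Dox became 42.8% and 42.4% (anti-apoptotic), 47.2% and 45.9% (effector) and 9.97% and 11.7% (BH3-only). With library size only, just the scaling differs, and the listed genes move up by nearly the same amount as the median of all tested genes. That median went from 0.00 to 0.22, BCL2 from 0.48 to 0.70, BAK1 from 0.09 to 0.31 and MCL1 from −0.11 to 0.10. The cause of the other shifts was not tested.

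Of the other lists, library size only gave 1 lower among caspase inhibitors, 1 lower among other family members and 5 higher among partner and turnover genes, for which trend removal gave 6 higher and 3 lower, and leaving out 1 library 1 to 4 higher. DESeq2 gave 2 higher transcription factors, and leaving out 1 library 1 to 5. Same-numbered libraries showed no shared deviation (correlation 0.0023), which cannot show whether they were paired by design. With a replicate block 2 members rose and 6 fell, as without it, and over all genes 5219 rose and 5195 fell. Depth limits BMF and BCL2 most among the members, at 56 to 210 counts a library.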

Other observations

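Genes for proteins that bind or degrade BCL2 family proteins were also listed. Of 11 such genes 3 rose, 5 fell and 3 did not pass (median log2 fold change −0.10). Of all tested genes 28.4% rose and 28.4% fell. HUWE1, a ubiquitin ligase of MCL1, fell from 870 ± 21.8 to 673 ± 7.51 CPM but passed as higher with GC, length and abundance trends removed (0.20), and the deubiquitinase USP9X, which stabilises MCL1, rose from 291 ± 1.04 to 347 ± 3.62 CPM (SD, n = 2). The mitochondrial channels VDAC1 and VDAC3 fell from 429 to 306 and from 193 to 156 CPM, while VDAC2, which binds BAK1 and was named after its value was seen, had 109 ± 3.44 and 102 ± 7.59 CPM (SD, n = 2; edgeR adjusted p = 0.0869). SIVA1, a pro-apoptotic protein, fell from 64.0 to 46.7 CPM.

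A list of transcription factors known to act on BH3-only genes, which also holds the pseudokinase TRIB3, moved both ways. Of 10 genes tested 5 rose, 3 fell (MYC, ATF4 and TRIB3) and 2 did not pass. Over all tested genes 28.4% rose and 28.4% fell. MYC, a growth-promoting factor, fell from 149 ± 5.30 to 50.8 ± 2.02 CPM (SD, n = 2), or by 1.56 on the log2 scale. FOXO4 rose from 9.11 to 21.9 CPM and FOXO1 from 5.93 to 8.29 CPM. FOXO3, named after its value was seen, had 15.6 and 14.0 CPM (adjusted p = 0.166). ATF4, a stress factor known to act on PMAIP1, fell from 235 to 155 CPM, and TRIB3, its target, from 153 to 57.7 CPM. In the same libraries BCL2L11 fell and PMAIP1 rose. No link between these factors and the family was tested.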
